A study of Mus musculus with 6 samples.

Results

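The miR-34 family and its close relatives of the miR-449 group were examined in mouse liver. Every probe of the panel whose base name was miR-34a, miR-34b, miR-34c, miR-449a, miR-449b or miR-449c was taken, with any arm, which gave 7 of the 566 mouse miRNA probes, mmu-miR-34a and mmu-miR-34c among them. RNA had been counted with the NanoString assay, which reads single tagged miRNA molecules through fluorescent barcodes, with no amplification. The samples were fresh frozen livers of 3 Apcfl/fl mice with hepatocarcinoma and of 3 Apc+/+ mice without a tumour, all on a C57Bl/6 background. The Apcfl/fl mice carried 2 copies of a hypomorphic floxed Apc allele, that is, an allele with reduced function, and according to the methods of the study their tumours have active Wnt/β-catenin signalling. The methods name no Cre driver for these mice, neither age nor sex is given in the sources used here, and each sample was bulk RNA of a liver. The comparison asks which miRNAs differ between a β-catenin driven liver tumour and normal liver.

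The miR-34 genes are direct transcriptional targets of p53, the transcription factor that answers DNA damage and oncogenic stress. Their mature products repress messenger RNAs for cell cycle and survival proteins such as Cdk6, Met and Bcl2, and miR-34a also represses Sirt1, a deacetylase with a role in hepatocyte metabolism. MiR-34a has a gene of its own and is found in most tissues, miR-34b and miR-34c come from a shared primary transcript that is most abundant in testis, lung and other ciliated tissue, and the miR-449 miRNAs are made in cells with many motile cilia.

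The sequences are shown because they make these genes a family. A miRNA finds its targets mainly through its seed, bases 2 to 8 from the 5′ end, given here in capitals. The mature sequences come from RefSeq (GRCm38.p6) and matched 5 of the 7 probes. Those of miR-34c and miR-449b were not matched. Probe names without an arm follow the older naming, in which they stand for the 5p product.
miR-34a: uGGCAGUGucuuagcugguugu
miR-34b-5p: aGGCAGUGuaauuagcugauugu
miR-449a: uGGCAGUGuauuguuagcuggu
miR-449c: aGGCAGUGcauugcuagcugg
miR-34b-3p: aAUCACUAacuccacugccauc
The 5p members shared the seed GGCAGUG in 4 of 4 cases, and of the 1738 mature mouse entries in the RefSeq table the same 4 carried it at bases 2 to 8. Downstream of the seed they differed in part. All 4 held the stretch uagcug there, but not all at the same base. A count without gaps misses such shifted matches, so the counts that follow give no order of likeness. Read from base 1 without gaps, miR-34a was identical to miR-449a at 15 of 22 bases, to miR-449c at 12 of 21 and to miR-34b-5p at 11 of 22, whereas miR-449a and miR-449c shared 18 of 21. MiR-34b-3p had another seed, because it is the opposite arm of the miR-34b hairpin.

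These miRNAs lie at 3 places in the genome (GRCm38.p6). The mature miR-34a sequence is at chr4:150068473-150068494 on the plus strand, in a gene that overlaps no other gene of the RefSeq table, between Gm13067 and Gpr157. On the minus strand of chromosome 9, miR-34b-3p is at chr9:51103574-51103595 and miR-34b-5p at chr9:51103610-51103632, and Mir34c is the next gene. Both hairpins lie within the span of Btg4 and Hoatz. MiR-449c at chr13:113036008-113036028 and miR-449a at chr13:113037549-113037570, both on the plus strand, lie with Mir449b within the span of Cdc20b, beside Mcidas, a regulator of multiciliated cells. Since both arms of miR-34b had a probe, its hairpin (chr9:51103562-51103645, minus strand) is given with the 5p and then the 3p product in capitals.
Mir34b hairpin: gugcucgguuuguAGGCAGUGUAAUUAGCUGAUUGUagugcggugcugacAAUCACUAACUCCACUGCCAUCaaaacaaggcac

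The livers gave 82942 to 133331 counts on mouse miRNAs. Background was judged from 33 probes for miRNAs of mouse viruses, and a probe was called detected in a liver where its count exceeded their mean plus 2 SD, a limit of 13.1 to 27.8 counts. By this measure 140 to 202 mouse probes were detected per liver, and 109 in all 6. The hepatocyte miRNAs (miR-122, miR-192, miR-194 and miR-802) were detected in every liver, 4 of 4. They had a summed normalized count of 24678 to 39679 in Apc+/+ and of 8180 to 13995 in Apcfl/fl liver. Most of this was miR-122, with means of 29867 and 9157. The means were 1375 and 1048 for miR-192, 1776 and 1243 for miR-194, and 106 and 42.0 for miR-802. The mesenchymal miRNAs (5 probes, 4 or 5 detected per liver) summed to 894 to 1318 against 322 to 725. The summed normalized counts of the other marker lists were 73.6 to 141.6 against 72.3 to 213.2 (epithelium), 3585 to 3807 against 2764 to 3552 (endothelium), 172.1 to 368.7 against 243.2 to 637.3 (leucocytes) and 856 to 1404 against 796 to 4561 (erythroid cells). In RNA from whole liver, fewer cells of a type and less of an RNA per cell cannot be told apart.

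The family was near or under background in most livers. Of its 42 values (7 probes in 6 livers) 5 were above the limit, 1 in an Apc+/+ liver and 4 in Apcfl/fl livers. MiR-34a accounted for 4 of them and miR-34c for 1, and both arms of miR-34b and the 3 miR-449 probes were at or under the limit in every liver. For comparison, 255 of the 566 mouse probes were above the limit in at least 1 liver. Per liver they numbered 144, 144 and 165 in Apc+/+ livers 1, 2 and 3. In Apcfl/fl livers 1, 2 and 3 they numbered 140, 202 and 178. Detection was judged on counts not scaled between livers. A test across miRNAs asked for 20 counts on average, which 1 probe of the 7, miR-34a, reached.

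**Figure D1:**
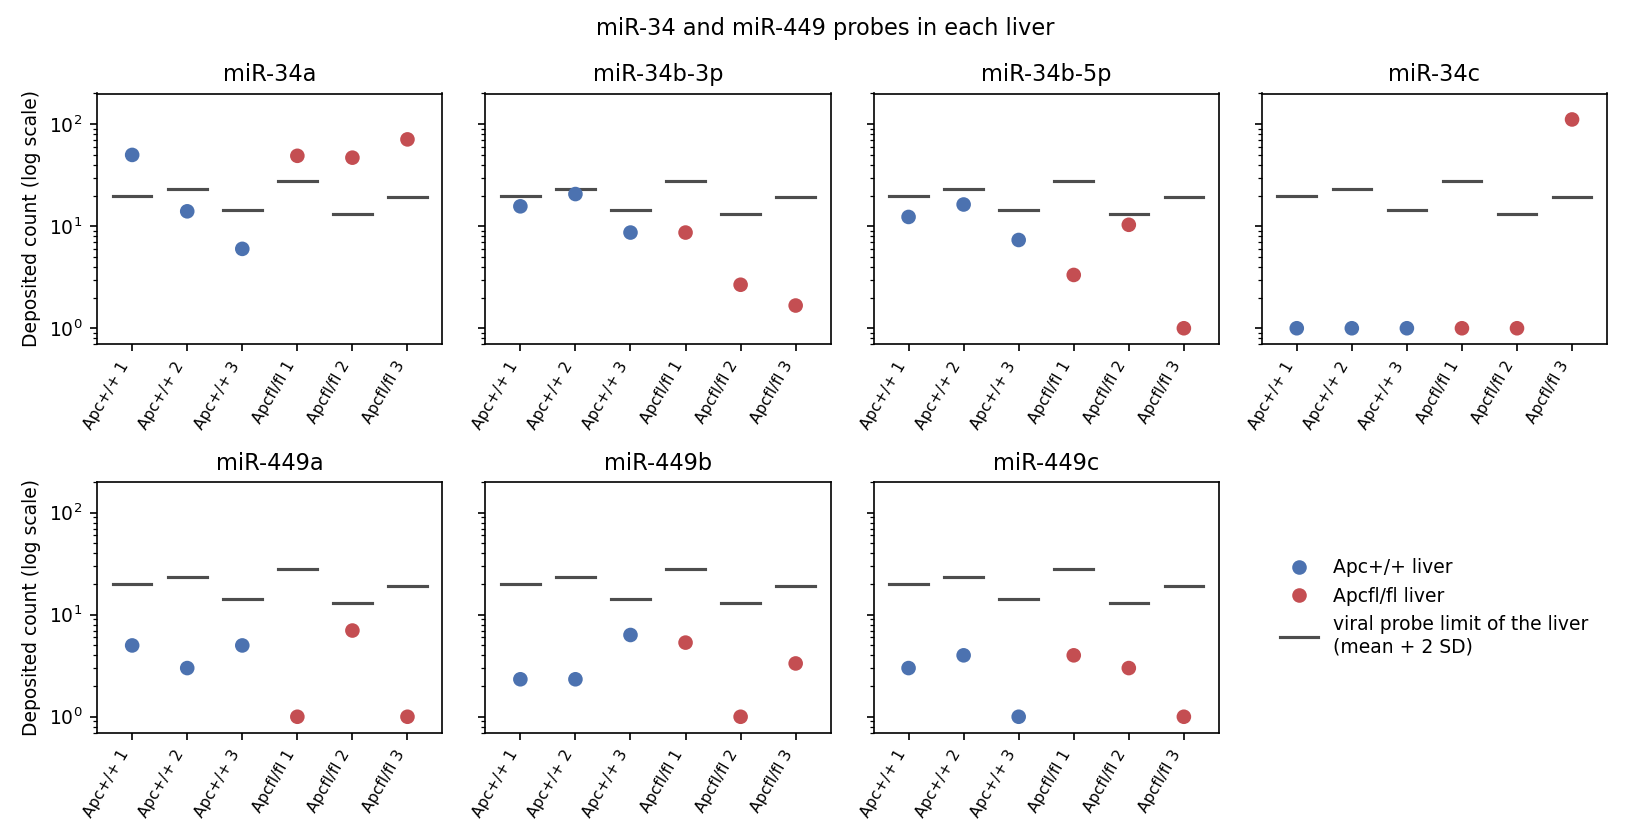
Deposited counts (log scale) of the 7 miR-34 and miR-449 probes in the 3 Apc+/+ (blue) and 3 Apcfl/fl livers (red), with the viral probe limit of each liver as a horizontal bar. MiR-34a exceeded the limit in 4 livers and miR-34c in Apcfl/fl liver 3, and the other probes did not exceed it.

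MiR-34a (MIMAT0000542) had deposited counts of 50, 14 and 6 in Apc+/+ livers 1, 2 and 3, where the limits were 19.96, 23.3 and 14.3. In Apcfl/fl livers 1, 2 and 3 it had 49, 47 and 71 counts, with limits of 27.8, 13.1 and 19.2. It was thus detected in all 3 Apcfl/fl livers and in 1 of 3 Apc+/+ livers. The margin was narrow in Apcfl/fl liver 1, where the brightest viral probe had 47.33 counts. Among the 566 mouse probes of its liver, miR-34a ranked 86, 251 and 341 in the controls (Apc+/+ livers 1, 2 and 3). In Apcfl/fl livers 1, 2 and 3 its ranks were 108, 126 and 108.

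After normalization with the TMM method, which scales the livers so that most miRNAs do not differ, the controls had 63.1, 17.2 and 7.37 counts of miR-34a, and the Apcfl/fl livers had 44.1, 49.8 and 46.6. The Apcfl/fl livers lay close together, between the highest and the other Apc+/+ livers, so the genotypes overlapped. The mean of the controls was 29.2 ± 29.8 and that of the Apcfl/fl livers 46.8 ± 2.86 (SD, n = 3 each). By the quasi-likelihood test of edgeR, miR-34a differed by 0.65 on the log2 scale, Apcfl/fl over Apc+/+ (SE 0.70, 95% confidence interval from -1.02 up to 2.31), with an adjusted p = 0.60 over all tested miRNAs (Benjamini-Hochberg; unadjusted p = 0.39). The two-sided exact permutation test gave p = 0.4, where 0.1 is the smallest that 3 mice against 3 allow. The difference was smaller than the spread between the Apc+/+ livers, and the confidence interval held values on both sides of 0.

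In the same fit 0% of the 174 tested miRNAs were called higher and 0% lower at an adjusted p-value under 0.05. At an unadjusted p-value under 0.05 these shares were 13.8% (24 miRNAs) and 10.9% (19), and miR-34a was in neither group, with the rank 112 of 174 by p-value. With DESeq2 in place of edgeR 20 miRNAs were called higher and 9 lower after adjustment, and with limma none (0 of 174). Other scalings turned the split, with 1 higher and 6 lower for the top 100 size factor but 16 higher and 1 lower for the total count. In DESeq2 and limma miR-34a had an adjusted p-value of 0.68 and 0.39.

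**Figure D2:**
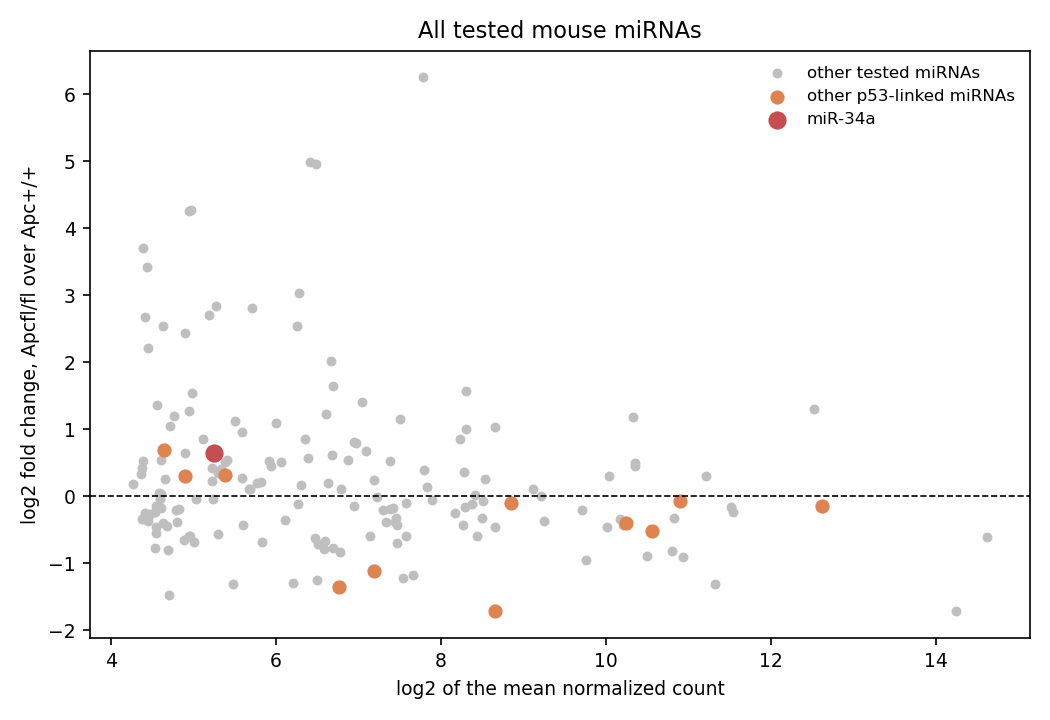
Log2 fold change, Apcfl/fl over Apc+/+ (vertical axis), against the log2 of the mean normalized count (horizontal axis) for the 174 tested mouse miRNAs, 1 point each. MiR-34a (red, 0.65) sits among other miRNAs of low count, and 8 of the 11 other p53-linked miRNAs (orange) lie under 0, beside 86 of all 174.

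The size of the difference rested on single Apc+/+ livers. Without Apc+/+ liver 1, which had the highest miR-34a count, the log2 fold change was 1.78 (SE 0.56; edgeR, adjusted p = 0.18, unadjusted p = 0.020), and without Apc+/+ liver 3, which had the lowest, it was 0.30 (edgeR, adjusted p = 0.80). Apc+/+ liver 3 also had the smallest scaling factor (0.655), with 33% of its counts on miR-720 against 15.7% to 25.7% in the other livers; the part of this scaling in the low value was not tested, and with the total count as library size the log2 fold change was 0.88, or 0.43 above the median of all tested miRNAs. With values under the viral probe limit raised to that limit it was 0.59 (SE 0.48).

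**Figure D3:**
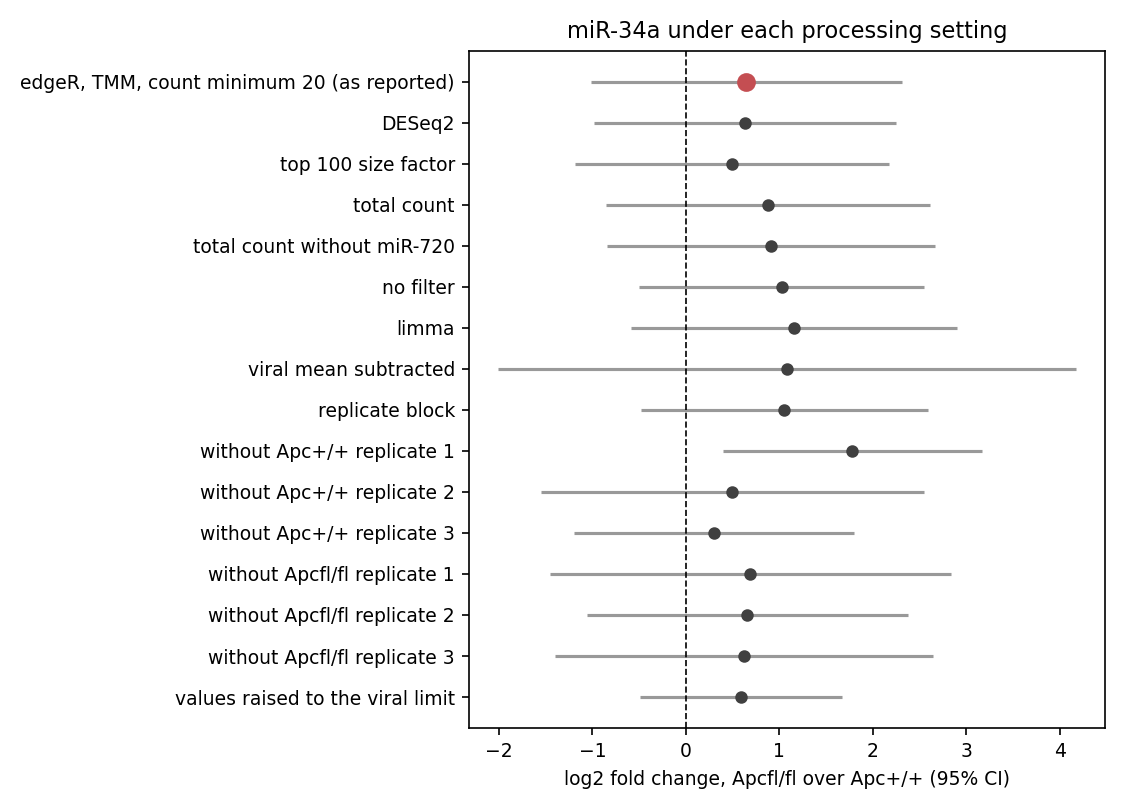
Log2 fold change of miR-34a, Apcfl/fl over Apc+/+ (points), with its 95% confidence interval (bars) as reported (top, red) and under 15 alternative settings. All points are above 0, from 0.30 to 1.78, and the interval excludes 0 only without Apc+/+ replicate 1.

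MiR-34c (MIMAT0000381) was found in 1 liver. It stood at 1 count, the lowest value of the table, in all 3 Apc+/+ livers and in Apcfl/fl livers 1 and 2, and it had 111.33 counts in Apcfl/fl liver 3. That count was 5.8 times the viral probe limit of the liver (19.2), above the miR-34a count of the same liver and 0.084% of its mouse miRNA counts, where miR-34c ranked 91 of 566. The mean of its normalized counts was 1.24 ± 0.020 for the controls and 25.0 ± 41.6 for the Apcfl/fl livers (SD, n = 3 each), so the spread within Apcfl/fl exceeded the difference. All controls stood at the lowest value, so their SD holds only the scaling of the livers. The two-sided exact permutation test gave p = 1, but with 1 liver above the lowest value it could not give a small p-value. With a mean of 19.4 counts over the 6 livers miR-34c stayed just under the minimum of 20. It was not tested across miRNAs, and no fold change between the genotypes is given.

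MiR-34b is cut from the same primary transcript as miR-34c, yet in Apcfl/fl liver 3 its arms had 1.67 counts (3p) and 1 count (5p), both far under the limit. A count above the limit in a single liver was not rare on this panel. It was seen for 71 mouse probes, 30 of them in Apcfl/fl liver 2, 17 in Apc+/+ liver 3 and 11 in Apcfl/fl liver 3. Few were as high as miR-34c. A count of more than 5 times the limit was reached by 9 of the 71, of which 8 belonged to Apcfl/fl liver 2 and 1, miR-34c, to Apcfl/fl liver 3, where the next probe, miR-195, was at 1.63 times the limit. Only 2 of the 71 stood at the lowest value in all the other livers, miR-34c and miR-376a (169.33 counts in Apcfl/fl liver 2). Both were picked out after their values had been seen.

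**Figure D4:**
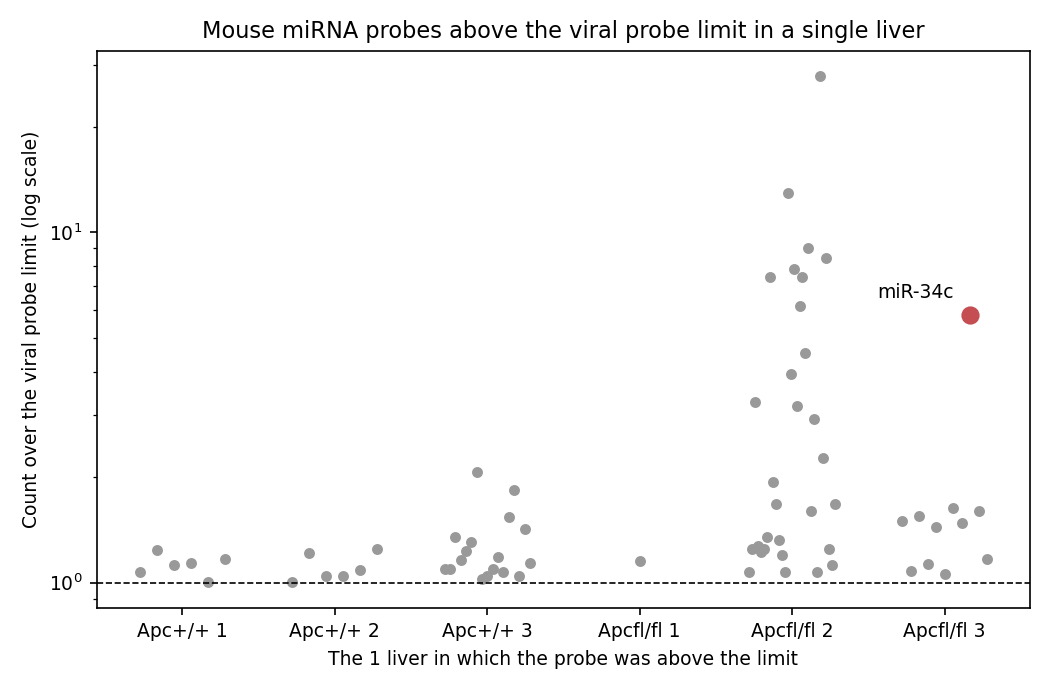
The 71 mouse miRNA probes above the viral probe limit in exactly 1 liver, placed by that liver, with their count as a multiple of its limit (log scale, dashed line at 1). MiR-34c, at 5.8 times the limit, stands apart from the other 10 probes of Apcfl/fl liver 3.

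Both arms of miR-34b were at or under background in every liver. MiR-34b-3p (MIMAT0004581) had 15.67, 20.67 and 8.67 counts in Apc+/+ livers 1, 2 and 3 and 8.67, 2.67 and 1.67 counts in Apcfl/fl livers 1, 2 and 3. MiR-34b-5p (MIMAT0000382) had 12.33, 16.33 and 7.33 against 3.33, 10.33 and 1 counts. The 2 arms followed each other in Apc+/+ liver, where liver 2 was highest and liver 3 lowest for both, an order that the mean of the viral probes shared (8.20, 11.3 and 5.66 counts in livers 1, 2 and 3). In Apcfl/fl liver the arms did not follow each other. Neither kept the order of the viral means there (10.1, 4.91 and 7.64 counts in livers 1, 2 and 3). Deposited counts of miR-34b-3p met at 8.67. Its normalized counts did not overlap between the genotypes (19.8, 25.4 and 10.6 against 7.80, 2.83 and 1.10), as was so for 18.4% of the tested miRNAs on the lower side, while those of miR-34b-5p did (15.6, 20.05 and 9.003 against 3.00, 10.9 and 0.66). The two-sided exact permutation test of the normalized counts gave p = 0.1 for the 3p arm, the smallest possible, and p = 0.2 for the 5p arm. It had been planned only for probes above the limit in at least 1 liver. With all values under the limit, it cannot tell a difference in miR-34b from one in background. As no value exceeded the limit, no fold change is given.

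The miR-449 probes were lower still. MiR-449a (MIMAT0001542) had 5, 3 and 5 counts in the controls against 1, 7 and 1 in the Apcfl/fl livers. MiR-449b (MIMAT0005447) had 2.33, 2.33 and 6.33 against 5.33, 1 and 3.33, and miR-449c (MIMAT0003460) had 3, 4 and 1 against 4, 3 and 1 counts. The genotypes overlapped for all 3, and the highest of these 18 values, 7 counts, was 0.53 times the limit of its liver. In Apcfl/fl liver 3, the liver with miR-34c, the 3 probes had 1, 3.33 and 1 counts.

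Of the other miRNAs linked to p53, most had lower fitted levels in Apcfl/fl liver, none of them past the adjusted threshold. The list held 16 miRNAs that p53 is known to induce or whose processing it promotes, of which 14 had a probe and 11 were tested. None was called at an adjusted p-value under 0.05 in edgeR's test (0 lower, 0 higher), nor with limma (0). This rested on the setting: 2 were called lower with DESeq2, and in edgeR 3 without Apcfl/fl replicate 3 and 1 each without Apcfl/fl replicate 2, with the top 100 size factor, with miR-720 left out of the total, with the count minimum of 60, with the viral mean subtracted and with the replicate block. The number called higher was 0 in all of these, and 8 to 11 of the list were tested. Over all tested miRNAs, 9 of 174 were called lower with DESeq2. Without Apcfl/fl replicate 3 this was 8 of 168, and without Apcfl/fl replicate 2 it was 3 of 154. In the other settings, in the order above, it was 6 of 174, 3 of 174, 6 of 101, 6 of 140 and 3 of 174. At an unadjusted p-value under 0.05, 4 were lower and 0 higher, beside 10.9% lower and 13.8% higher of all tested miRNAs. Fitted levels were lower for 8 and higher for 3, beside 86 lower and 88 higher of all 174 tested miRNAs. Members made from a shared transcript, such as miR-143 and miR-145, are counted singly here, so these counts are not of independent genes. The median log2 fold change of the list was -0.14 against 0.01 for all tested miRNAs. With the total count as library size the list's median was 0.26 and that of all tested miRNAs 0.45. With values raised to the viral limit they were 0.05 and 0.03, and with no filter (14 of the list tested) 0.27 and -0.04.

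The lower members were led by miR-145, a miRNA of smooth muscle and other mesenchymal cells that acts against proliferation. The controls had 494.7, 764.8 and 598.2 normalized counts and the Apcfl/fl livers 116.0, 199.1 and 246.9, without overlap. On the log2 scale this was -1.71 (SE 0.33; edgeR, adjusted p = 0.056). MiR-143, made from the same transcript as miR-145, had 148.1, 228.7 and 222.7 against 65.1, 84.0 and 125.0 normalized counts, again without overlap, or -1.11 on the log2 scale (SE 0.33; edgeR, adjusted p = 0.087). Both are mesenchymal markers, and the hepatocyte markers miR-192 (-0.39) and miR-194 (-0.51) are also on the list. The marker sums given above contain these miRNAs. Without them, the other 3 mesenchymal probes (miR-199a-3p, miR-199a-5p and miR-214) summed to 251.1, 324.1 and 361.1 normalized counts in the controls against 141.2, 234.1 and 353.2, with overlap. The other 2 hepatocyte probes (miR-122 and miR-802) summed to 21337, 32048 and 36535 against 6045, 11385 and 10169, without overlap, and nearly all of this sum was miR-122. The part of either cell type in the values of the list was not tested.

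On the higher side the smallest p-values were those of miR-429 and miR-200a, members of the epithelial miR-200 family. For miR-429 the controls had 9.68, 26.6 and 19.2 normalized counts against 11.4, 59.0 and 24.1, or 0.68 on the log2 scale (SE 0.65; edgeR, adjusted p = 0.56). MiR-200a had 24.4, 49.5 and 36.03 against 28.2, 79.8 and 31.1, or 0.33 (SE 0.53; edgeR, adjusted p = 0.74). For both, the genotypes overlapped and Apcfl/fl liver 2 was highest. Of the 5 epithelial marker probes, which include both, 0 to 3 were detected per liver.

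**Figure D5:**
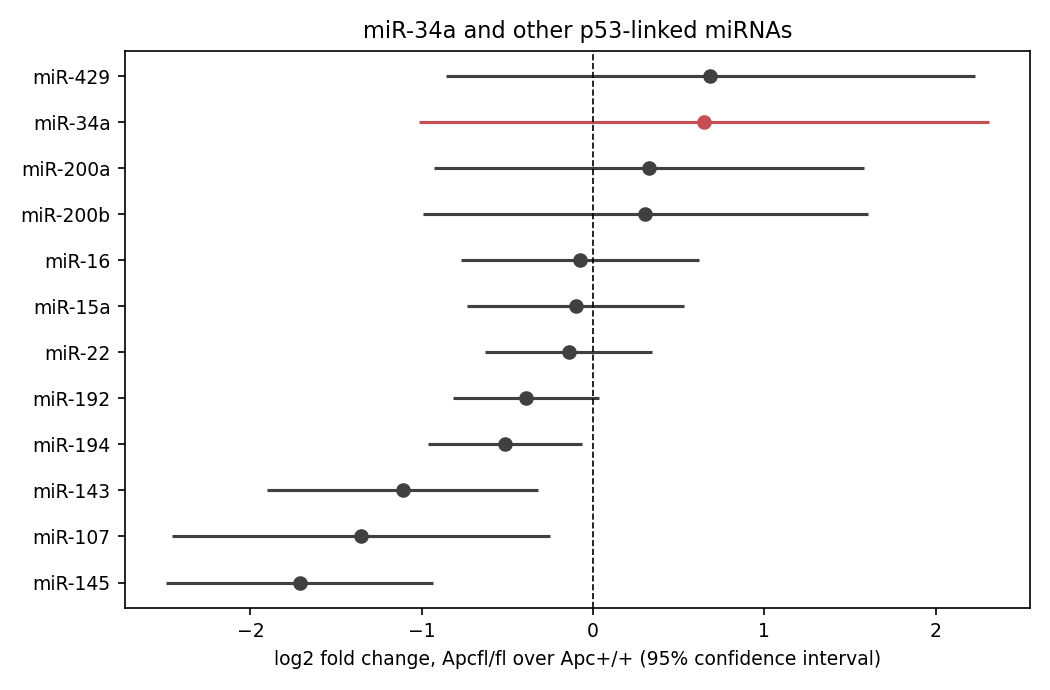
Log2 fold change, Apcfl/fl over Apc+/+ (points), with its 95% confidence interval (bars) for miR-34a (red) and the 11 tested miRNAs of the p53-linked list (black). The interval of miR-34a spans 0, and those of miR-145, miR-107, miR-143 and miR-194 lie under 0 before adjustment for the 174 tests.

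The miRNAs whose levels followed miR-34a most closely over the 6 livers, by Pearson's r of the normalized log2 counts among the 173 other tested miRNAs, were miR-28 (r = 0.95, Spearman's rho 0.60), miR-484 (0.89, 0.49), miR-136 (0.84, 0.66), miR-423-3p (0.83, 0.49) and miR-151-5p (0.79, 0.60). They were chosen for this likeness out of many over few livers, which also share a scaling, so these values only describe the data. MiR-28, the closest, had 67.3, 44.6 and 34.8 normalized counts in the controls against 78.6, 68.1 and 67.2. Like miR-34a, it was highest in Apc+/+ liver 1 and lowest in Apc+/+ liver 3 among the controls. None of the 5 was called in edgeR's test (0 of 5, adjusted p = 0.20 to 0.38; unadjusted p = 0.051 to 0.18), and their log2 fold changes were 0.52 to 2.54.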

How the data were processed

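MiRNAs were counted by NanoString in 6 mouse livers, 3 per genotype. Genotype and replicate number came from the sample labels. The authors deposited estimated counts per probe, not scaled between livers. Each probe had 1 decimal part across the livers (584 of 584 probes with at least 2 values above 1). A fixed amount per probe, such as a background value, taken off before deposit would leave this pattern, but that step was not established. The lowest value was a floor of 1 (446 of 3594). The software is not given in the sources used here. Values were rounded to whole numbers for the count tests. No value column lacked a sample (0).

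Members, lists and tests were chosen with earlier results of these data known. Mouse miRNAs with a mean of at least 20 counts (174) entered edgeR 4.0.16 (its quasi-likelihood model, TMM over the tested miRNAs, prior count 2, Benjamini-Hochberg) in R 4.3.3, beside exact permutation tests of log2 normalized counts. The SE of an edgeR fit was the absolute log2 fold change divided by the square root of the F statistic of its test. The 95% confidence interval was built from that SE, so both are approximate. Normalized counts are counts divided by the effective library size times its mean over the livers. Named miRNAs were all members, up to 2 of the p53-linked list per direction with the smallest p-value, and the 5 most like miR-34a. Livers of a genotype differed by a chi-square of 17.2 to 89.1 per degree of freedom, where sampling noise gives 1, and no pair was merged. Alternatives used DESeq2 1.42.0 and limma 3.58.1 (pseudocount 1), other scalings, filters and limits, a replicate block and each liver left out. The procedure was tested on simulated data. These held only miRNAs with a mean of at least 20 counts and no floor of 1, so they do not bear on probes near the floor. Precision is limited by 3 mice per genotype and by low counts.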

Additional observations from a re-analysis of the deposited data

How the results depend on the processing

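MiR-34a had a positive log2 fold change in all 15 alternatives that gave it a value (0.30 to 1.78; adjusted p 0.18 to 0.80), and an adjusted p-value under 0.05 in 0 of them; with the count minimum of 60 it was not tested. With 1 liver left out it ranged from 0.30 (without Apc+/+ replicate 3) to 1.78 (without Apc+/+ replicate 1). The number of detected values of the family was 5 with the viral mean plus 3 SD or the highest viral probe as the limit, and 6 with a fixed limit of 20. The fit with values raised to the viral limit was added after the data had been seen.

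Calls after adjustment over all tested miRNAs numbered 0 in edgeR (43 at an unadjusted p-value under 0.05, 24 higher and 19 lower), 29 with DESeq2 (9 lower, 20 higher), 7 with the top 100 size factor (6, 1), 17 with the total count (1, 16), 21 if miR-720 is left out of it (3, 18), 18 with the count minimum of 60 (6, 12), and 15 with the viral mean subtracted (6, 9). They numbered 0 to 19 with 1 liver left out, with 19 without Apcfl/fl replicate 3 (8 lower, 11 higher), 8 without replicate 2 (3, 5) and 1 without replicate 1 of that genotype (0, 1). The median of the p53-linked list (-0.14) was 0.26 with the total count and 0.24 if miR-720 is left out of the total. It was 0.27 with no filter, 0.05 with values raised to the viral limit, and -0.38 to -0.04 with 1 liver left out. With no filter the median of all tested miRNAs was -0.04, so the list (14 tested) lay above it. In the fit as reported the list lay under the median of all tested miRNAs (0.01). The causes of these changes were not tested. With the total count the median of all tested miRNAs was also higher, at 0.45 (0.39 without miR-720).

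Equal replicate numbers were no sign of paired mice: deviations from the genotype means correlated at -0.06, -0.06 and 0.12 between livers of the same number. With the replicate block 7 miRNAs were called, 1 of them on the p53-linked list (lower) where the fit without it called 0, miR-34a had a log2 fold change of 1.05 (adjusted p = 0.41) and the p53-linked median was -0.15. Counts under the limit leave differences in miR-34b and the miR-449 miRNAs unresolved, and miR-34c had a signal in a single liver.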
